A study of Oryza sativa with 4 samples.

Results

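Genes for the synthesis of hemicelluloses and for the trimming of wall glucans were compared between rice coleoptiles grown in air and without oxygen. A gene belonged to the set when its symbol or a synonym in the RefSeq gene table began with CSL (cellulose synthase-like), XTH, XET or XTR (xyloglucan endotransglucosylase/hydrolase), GLU and a number (endoglucanase), GT43 or GT47 (glycosyltransferase families), and cellulose synthase (CESA) genes were left out. This gave 47 of 39387 genes in the table, with 25 CSL, 1 XTH, 12 GLU, 9 GT43 and 0 GT47 genes. GT47D (LOC4327240) and CSLF8 (LOC4343552) carry the matching name only with Os in front, so they are described beside the set and not counted in it. Of the 47 genes, 38 had a probe set on the array, out of 17905 genes that did. CSLA3, CSLA4, CSLE6, CSLF3, CSLF4, CSLF9, GLU3, GT43B and GT43D had none and were not analysed here.

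A coleoptile is the tubular first organ of a grass seedling, around the young shoot. Seeds of Oryza sativa cultivar Nipponbare were left to germinate in darkness at 28 °C. After 4 days, coleoptiles were taken from air (2 arrays) and from an anaerobic chamber holding N2 and H2 at 90 to 10 (2 arrays). Aerobic coleoptiles had their primary leaf removed by cutting, and anoxic seedlings had none, so the cutting went with the group. Whether the replicates are separate cultures is not stated, and the p-values count only array-to-array spread, which may be technical. In whole coleoptiles, fewer cells of a type and less RNA per cell cannot be told apart.

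The wall of a grass coleoptile is cellulose embedded in hemicelluloses, mainly arabinoxylan and mixed-linkage glucan, with less xyloglucan and mannan than in dicot walls. CSLF and CSLH enzymes make mixed-linkage glucan, CSLC enzymes the glucan backbone of xyloglucan, CSLA enzymes mannan, and GT43 and GT47 proteins build the xylan backbone in the Golgi. XTH enzymes cut and rejoin xyloglucan chains in the wall, and the GLU endoglucanases cut glucan chains, some of them at the plasma membrane where cellulose is made. Coleoptiles of rice are known to elongate without oxygen while root and leaf do not grow out.

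The values were normalized intensities, 1 per probe set and array, and each gene was read from the probe set with the highest mean intensity over all 4 arrays. Probe sets with a mean log2(intensity + 1) of at least 4 were tested with limma, and a call needed an adjusted p under 0.05 and a log2 change of 1 or more in size. All changes are anoxic minus aerobic on the log2(intensity + 1) scale, on which dim probe sets appear to change less than they did. Reporter probe sets, which read transgene sequences, served as background: their highest group mean was 4.05, an intensity of 15.6. Where the dimmer group lay at or under that level, the difference is given as at least N-fold, the brighter mean against 4.05. Probe sets differ in how brightly they read, so levels were compared between arrays and not between genes.

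Over the 18826 probe sets tested, replicate arrays correlated with r = 0.973 in air and 0.968 in anoxia and arrays of different groups with 0.687 to 0.698. These correlations run over probe sets within the arrays, and probe sets are no replicates. Markers of the cut leaf were mixed: of 8 leaf and plastid genes on the array, 5 lay at background in both, among them the chlorophyll-binding protein genes CAB2R and LHCP, and the summed intensity of the 8 ran from 371 to 385 in air and from 272 to 306 in anoxia. Of the 3 tested, the photosystem gene PSAG fell by 1.40 (limma, adjusted p = 0.00666; not called without aerobic replicate 1 or 2, 0.0608 and 0.0617), and the Rubisco gene RBCS differed by 0.05 (0.845). The third, PSAH, went the other way, with 16.7 and 17.7 in air and 25.8 and 22.7 in anoxia. Its change of 0.47 was not called (limma, adjusted p = 0.0965). Of 10 grain storage genes 8 were at background in both groups, with sums from 438 to 470 in air and from 207 to 214 in anoxia. Of the 2 tested, the globulin gene GLB fell by 1.68 (limma, adjusted p = 0.00457). Without aerobic replicate 1 its change was -1.59 and was not called. The other, GLUA-2, changed by -0.06 (limma, adjusted p = 0.843), and its groups overlapped. Of 16 tested genes of the cell cycle list 4 rose and 0 fell, against 16% and 18.0% over all genes tested (limma; 6 and 1 at an unadjusted p under 0.05), with a median of 0.54 (0.50 with bounds for the gene at background in 1 group) and, with 1 array left out, 0 to 1 higher and 0 to 1 lower. The 4 that rose were CYCD4-1 (by 2.61), CYCT1-1 (1.44), CYCH-1 (1.37) and CYCP3-1 (1.01). They were matched by the letters CYC, and whether each of them marks dividing cells was not tested. The CYCB genes on the array were too dim to be tested. CYCB1-1 (LOC4327547) read 5.93 and 9.17 in air and 18.3 and 29.0 in anoxia. CYCB2 read 7.55 and 7.40 in air and 18.4 and 16.1 in anoxia (LOC4336670). A further CYCB2 (LOC4342121) read 5.13 and 10.9 in air and 13.3 and 25.8 in anoxia. These values are near background, and CycB1-1 (LOC4326914) stayed at background on all arrays. Of the 33 genes of this list with a probe set, 12 were at background in both groups, among them the replication genes MCM2, MCM3, MCM4, MCM5 and MCM7. The sums over the 33 ran from 2181 to 2221 in air and from 2835 to 3278 in anoxia. The part of these tissues in the results below was not tested.

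Of the 38 genes with a probe set, 26 were tested, of which 14 fell, 3 rose and 9 were not called, while 12 were at background in both groups and not tested. Over all 12290 genes tested, 18.0% were called lower and 16% higher, while the members' shares were 53.8% and 11.5%. The median change was -1.13 among the 26 (-1.09 with those at background in 1 group set to their bound) and 0.03 among all tested genes, whose middle range ran from -0.73 to 0.70. In each of the 26 genes the groups did not overlap, with anoxia below air in 21 and above it in 5; over all tested genes this held for 77.9%, with 37.2% below and 40.8% above. A gene at background in 1 group passes the filter on low values only if it is high in the other, which applied to 4 of the 26 (CSLC2, GLU8, GLU10 and GT43G), so the counts of tested members are descriptions. With a mean of at least 6 required, 19 members were tested and 9 fell and 2 rose, against 17.5% lower and 16.3% higher over all 8291 genes tested then.

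Most of the members' calls needed all 4 arrays. Leaving out aerobic replicate 1 or 2 left 4 or 5 members called lower, and leaving out anoxic replicate 1 or 2 left 10 or 9. The members called higher were then 1, 1, 2 and 1. The calls over all genes went down too, from 2216 lower and 1964 higher to between 860 and 1647 lower and between 452 and 1308 higher. Calls of CSLF6, GLU1, GLU10, GLU11 and XTH8 were kept with any 1 array left out, and 12 were lost at least once. The smallest p an exact 2-sided permutation test could give for 1 gene with these 4 arrays is 0.333, so each adjusted p here depends on the spread that limma pools over probe sets. The median absolute log2 difference between replicates was 0.30 in air and 0.21 in anoxia over the 26 genes, against a median absolute change of 1.38.

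**Figure D1:**
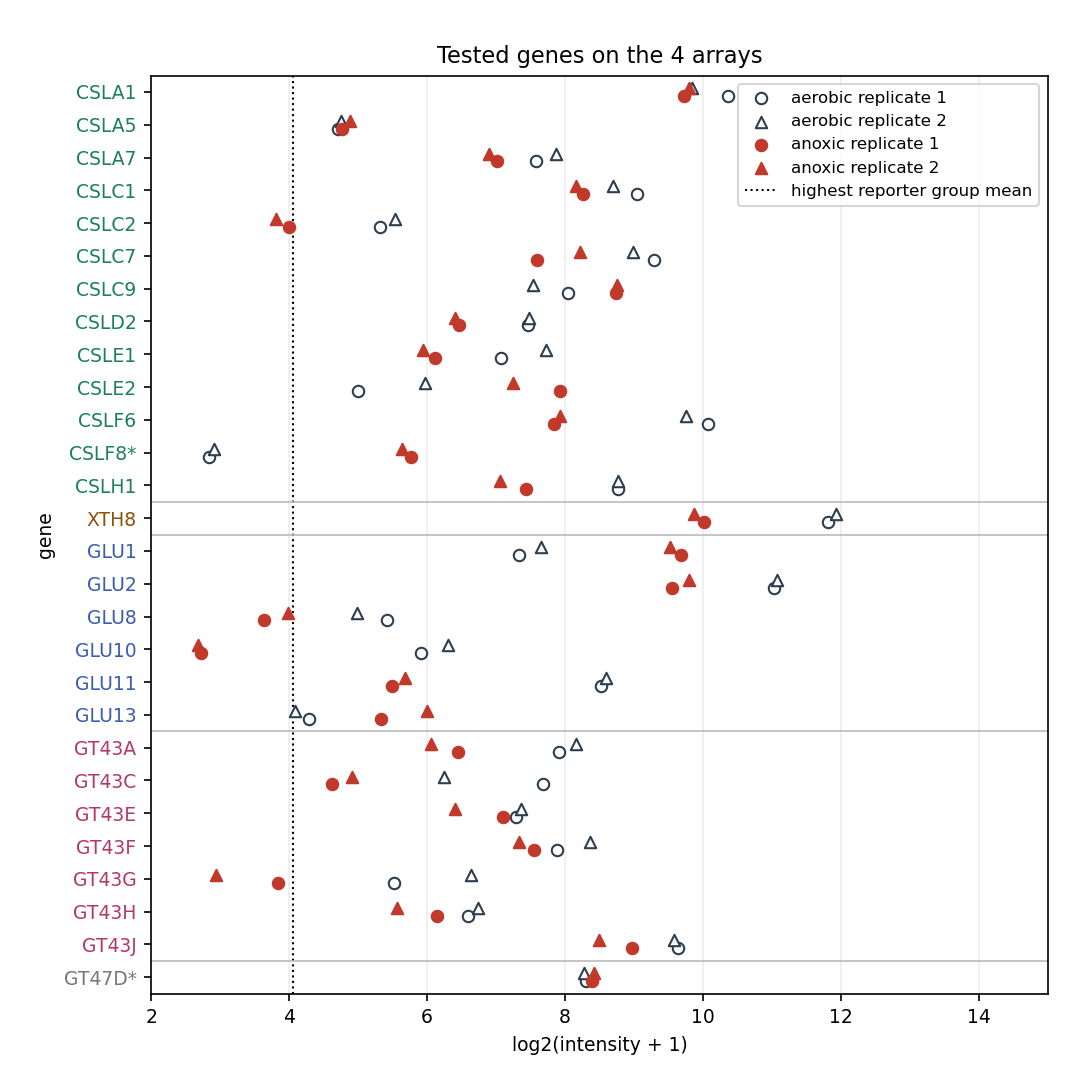
Level of each tested gene on the 4 arrays. The x axis is log2(intensity + 1) and each row is a gene, with open symbols for aerobic and filled symbols for anoxic arrays, circles for replicate 1 and triangles for replicate 2. The dotted line is the highest group mean of a reporter probe set (4.05), and an asterisk marks the genes named only with Os in front. The anoxic symbols lie to the left of the aerobic ones in 21 of the 26 members.

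Of the synthases of mixed-linkage glucan, CSLF6 and CSLH1 fell. CSLF6 (LOC4344719), the main synthase of this polymer in rice, read 1079 and 865 in air and 228 and 243 in anoxia. The groups were far apart beside the gap between replicates. CSLF6 fell by 2.03 ± 0.20 log2 units (SE; limma, adjusted p = 0.00403). CSLH1 (LOC4348359), a member of another clade that makes the same polymer, read 436 and 434 in air and 172 and 133 in anoxia, and fell by 1.52 ± 0.20 (adjusted p = 0.00832). Its call was lost without aerobic replicate 1 (0.0772) or 2 (0.0754).

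CSLF8, one of the genes named only with Os in front, read 6.16 and 6.54 in air, which is background, and 53.5 and 48.9 in anoxia, at least 3.14-fold higher (limma, adjusted p = 0.00169). The gene passed the filter on low values through its anoxic arrays alone. It was called higher with any 1 array left out. In the RefSeq assembly CSLF8 lies in a row of CSLF genes, directly between CSLF9 and CSLF2. CSLF2 stayed at background on all 4 arrays (5.75 to 5.82), as did CSLF7 (5.36 to 5.47), which has 6 genes between it and CSLH1. Of the genes of this row with a probe set, CSLF8 and CSLF2, only CSLF8 had a signal above background. CSLF3, CSLF4 and CSLF9 had no probe set, so whether they had a signal is not known here.

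The CSLC genes, for the xyloglucan backbone, also differed among themselves. CSLC2 (LOC4347118) read 38.8 and 45.5 in air and 14.9 and 13.1 in anoxia, where it was at background, at least 2.59-fold lower (adjusted p = 0.00687 by limma). CSLC7 (LOC4339283) read 626 and 505 in air and 192 and 295 in anoxia and fell by 1.24 ± 0.28 (adjusted p = 0.0310). The gene was read by an x_at set alone, a type that holds probes with matches to other sequences. Both groups of CSLC7 were uneven, and the anoxic arrays differed more. The call of CSLC2 was lost without aerobic replicate 1 (0.0548) or 2 (0.0616), and that of CSLC7 without either aerobic array (0.174 and 0.126) or anoxic replicate 1 (0.0888).

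CSLC9 (LOC4334258) ran against these. It read 263 and 184 in air and 429 and 431 in anoxia, a change of 0.96 ± 0.24 (adjusted p = 0.0368, 95% interval 0.32 to 1.60), just under the size required for a call and past it under quantile normalization (1.01). CSLC1 changed by -0.66 ± 0.20 (adjusted p = 0.0645) and was not called. CSLC3 was at background on every array (6.30 to 6.39). Of the 4 tested CSLC genes, then, 2 fell, and the other two stood on opposite sides of 0.

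None of the 3 tested genes of the mannan synthase family CSLA was called by limma. CSLA7 (LOC4343994) read 190 and 232 in air and 128 and 119 in anoxia, and its change of -0.76 ± 0.19 had an adjusted p of 0.0384 by limma but was under the size required. CSLA1, also listed as CSLA9, changed by -0.34 (95% interval -0.99 to 0.31) and CSLA5 by 0.10 (-0.35 to 0.55). Neither interval reaches a change of 1, and that of CSLA1 comes close to it. CSLA5 read only 25.2 to 28.7 over all arrays, not far above background, where changes appear smaller than they were. At an unadjusted p under 0.05, 1 of the 3 tested CSLA genes, CSLA7, would pass. The gene with CSLA9 as its first name (LOC4341571) read 7.06 and 7.51 in air and 12.6 and 16 in anoxia, under the level required for the test.

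CSLD enzymes are related to cellulose synthases and serve tip-growing and dividing cells, and the product of the CSLE clade is not settled. CSLD2 (LOC4339895) read 176 and 177 in air and 87.3 and 84.2 in anoxia. The replicates were close, and the fall of 1.03 ± 0.16 (limma, adjusted p = 0.0119) sat at the size threshold. The call went with either aerobic array left out (0.0761 and 0.0755) and with anoxic replicate 2 left out (0.0527). CSLD1, CSLD4 and CSLD5 lay between 4.60 and 6.78 on all arrays, at background.

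The 2 CSLE genes with a probe set had opposite signs. CSLE1 (LOC4347370), which adjoins CSLE6 in the assembly, read 134 and 211 in air and 68.7 and 60.3 in anoxia, and fell by 1.37 ± 0.28 (adjusted p = 0.0229). CSLE2 (LOC4330583) read 31.1 and 61.8 in air and 242 and 150 in anoxia, a rise of 2.09 ± 0.43 (adjusted p = 0.0237). No fit on 3 arrays kept either call (adjusted p from 0.0538 to 0.114 for CSLE1 and from 0.0677 to 0.116 for CSLE2).

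The sign of CSLE2 depended on the probe set. Its brightest set by the mean intensity is of the x_at type too. The S1_at set gave a rise of 1.79 ± 0.30 (adjusted p = 0.0138), with 38.9 and 58.1 in air and 197 and 142 in anoxia. The a_at set, whose probes match several transcripts of 1 gene, read 124 and 150 in air and 126 and 74.8 in anoxia, a change of -0.49 ± 0.31 (adjusted p = 0.276). That set is the brightest by the mean of the log2 values, so the gene counts as higher under 1 choice and as not called under the other.

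**Figure D2:**
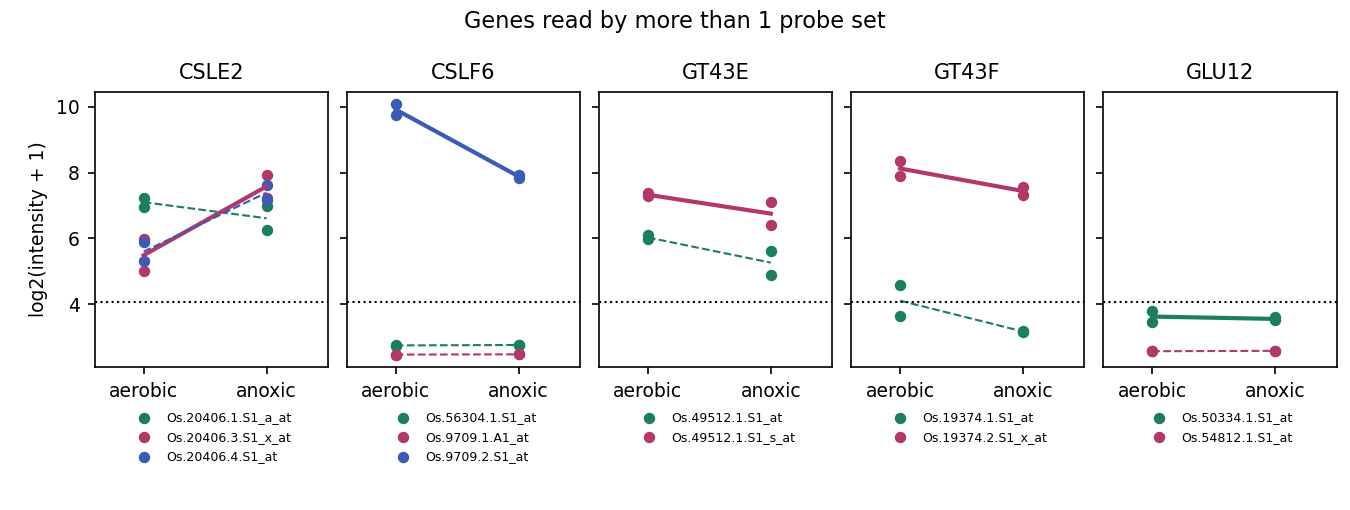
Members read by more than 1 probe set. The y axis is log2(intensity + 1), points are arrays, lines join the group means, and the solid line is the probe set used; the dotted line marks background (4.05). The sets of CSLE2 cross, while CSLF6 is read above background by 1 of its 3 sets.

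For the other members with several sets the reading was simpler. CSLF6 was above background on 1 of its 3 sets, the other two lying between 4.53 and 5.79 on every array. GT43E had 2 tested sets, with changes of -0.57 and -0.76 and no call on either. The second set of GT43F read 11.5 and 22.9 in air and 8.0 and 8.04 in anoxia and was too dim to be tested, and both sets of GLU12 were at background.

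The GT43 family, for the xylan backbone, lay lower in anoxia for each of its 7 tested genes, with a median change of -0.88. Both anoxic arrays were below both aerobic ones in each of the 7, and in 37.2% of all genes tested. The 6 genes above background in both groups changed by -2.20 to -0.57, and GT43G has only a bound. Of the 7, limma called 3 lower (42.9%: GT43A, GT43C and GT43G) and 0 higher, against 18.0% and 16% over all genes tested. At an unadjusted p under 0.05 the counts of the 7 were 6 and 0. With 1 array left out, 0 to 2 were called lower, the fewest without aerobic replicate 1 (4 at an unadjusted p). The fall of GT43A (LOC4337665) was from 241 and 286 in air to 86.7 and 65.8 in anoxia, a change of -1.78 ± 0.22 (adjusted p = 0.00718), lost as a call without aerobic replicate 1 (0.0638) or 2 (0.0712).

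GT43C (LOC4344394) has the synonym IRX9, after an Arabidopsis gene needed for xylan elongation. It read 205 and 74.6 in air and 23.5 and 29.3 in anoxia. The aerobic arrays disagreed widely, yet both lay above both anoxic ones. It fell by 2.20 ± 0.53 (limma, adjusted p = 0.0343), by 1.47 if aerobic replicate 1 was left out (not called, 0.0712) and by 2.92 if aerobic replicate 2 was. The call was lost as well without anoxic replicate 1 (0.162) or 2 (0.133).

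GT43G (LOC4348270) read 44.7 and 98.6 in air and 13.4 and 6.70 in anoxia, at background. It was at least 4.06-fold lower (adjusted p = 0.0196), with the bound between 2.75-fold (aerobic replicate 2 left out) and 5.99-fold (aerobic replicate 1 left out), and no fit on 3 arrays kept the call (adjusted p from 0.0621 to 0.109). The replicates of GT43G were far apart in both groups, yet the groups did not overlap.

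The other 4 GT43 genes had smaller differences. GT43J (IRX14 in RefSeq, named after the partner of IRX9 in Arabidopsis) read 797 and 766 in air and 501 and 361 in anoxia, a change of -0.88 ± 0.23 with an adjusted p of 0.0420 by limma, under the size required. Without anoxic replicate 1 it was -1.11 and called (0.0474). GT43H changed by -0.81 (adjusted p = 0.0704), GT43F (IRX9L) by -0.68 (0.0876) and GT43E by -0.57 (0.188). GT43E and GT43J were read by s_at sets, which share probes between transcripts of different genes, and GT43F by an x_at set.

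GT47D, the other gene named only with Os in front, was level between the groups. It read 314 and 308 in air and 336 and 342 in anoxia, a change of 0.12 ± 0.16 (limma, adjusted p = 0.581, 95% interval -0.31 to 0.56). The interval does not reach the size required for a call in either direction. It was the 1 gene of the GT47 family found by name, so nothing follows for the rest of that family.

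**Figure D3:**
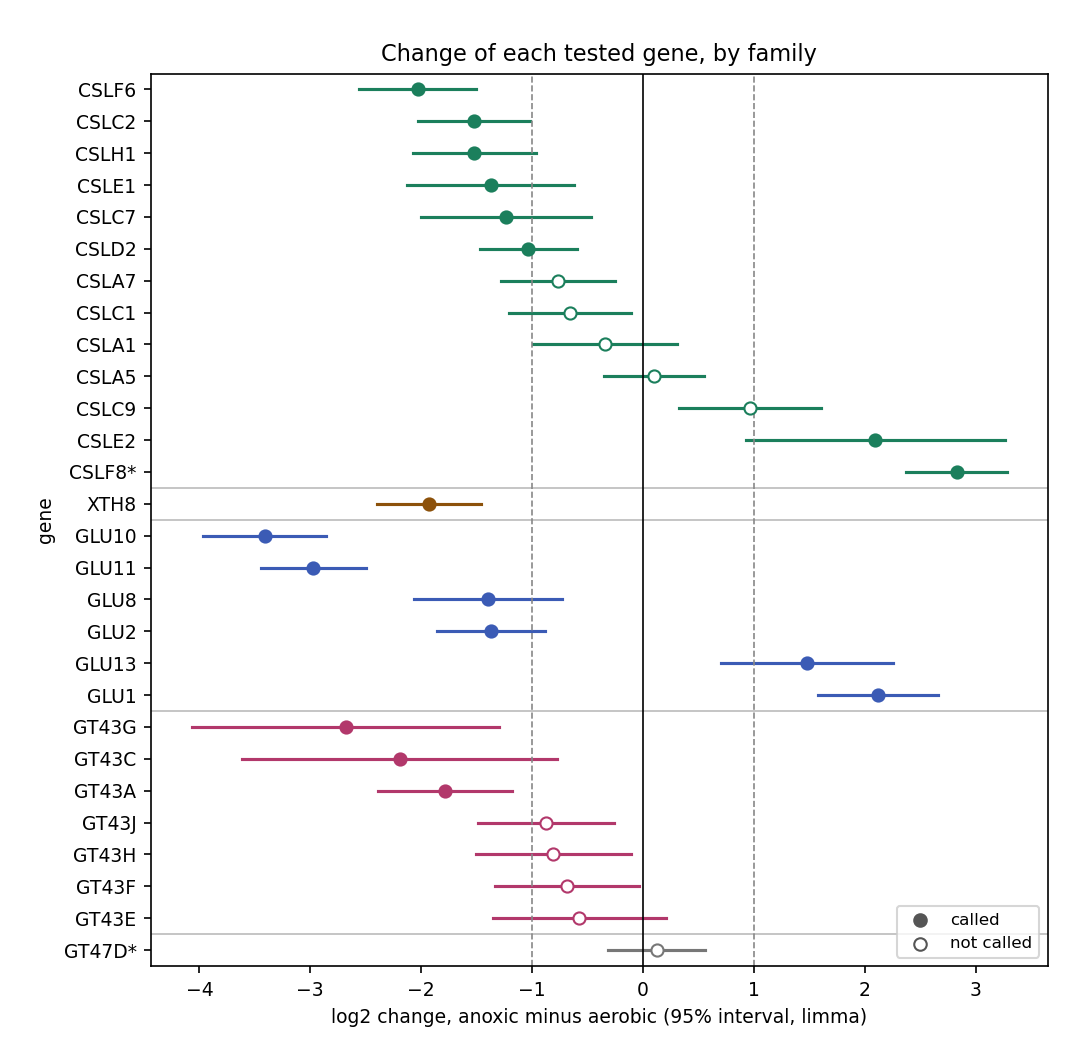
Log2 change of each tested gene (anoxic minus aerobic) with its 95% interval from limma, ordered by size within the CSL, XTH, GLU, GT43 and GT47 genes. Filled points were called, open points were not, dashed lines mark a change of 1 in size, and an asterisk marks the genes named only with Os in front. The 7 GT43 points all lie below 0, while the measured GLU points run from -2.97 to 2.12. Points of CSLC2, CSLF8, GLU8, GLU10 and GT43G are fitted values against a group at background, for which the text gives bounds.

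Of the enzymes that remodel xyloglucan, the 1 gene found by name was XTH8 (LOC4345019), known in rice as a gibberellin-induced gene of growing tissue. It read 3608 and 3923 in air and 1040 and 932 in anoxia. The replicates were close in both groups. XTH8 fell by 1.93 ± 0.17 (limma, adjusted p = 0.00348), and was called lower with any 1 array left out.

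The GLU endoglucanases were split, and each of the 6 tested genes was called: 4 fell and 2 rose. Over all genes tested, 18.0% were called lower and 16% higher. GLU10 (LOC4330667) read 59.5 and 77.8 in air and 5.60 and 5.38 in anoxia, which is background. It was at least 4.16-fold lower (adjusted p = 0.00172), a bound that ran from 3.64-fold to 4.74-fold with 1 array left out. GLU11 (LOC4346968) read 366 and 387 in air and 44.0 and 50.5 in anoxia. It fell by 2.97 ± 0.18 (adjusted p = 0.00167). Both genes had anoxic arrays far under the aerobic ones. Those of GLU11 were close together above background, while the closeness of those of GLU10 is that of any probe set at background.

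Smaller falls were found for GLU2 and GLU8. GLU2 (LOC4334029) read 2089 and 2154 in air and 752 and 892 in anoxia and fell by 1.37 ± 0.18 (limma, adjusted p = 0.00801). GLU8 (LOC4327286) read 41.8 and 30.8 in air and 11.4 and 14.8 in anoxia, at background, and was at least 2.22-fold lower (adjusted p = 0.0162). GLU2 lost its call without aerobic replicate 1 (0.0698) or 2 (0.0708), and GLU8 in each fit on 3 arrays (adjusted p from 0.0566 to 0.0976).

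GLU1 and GLU13 rose. GLU1 (LOC4332724) encodes a membrane-bound endoglucanase whose loss shortens internodes in rice, with effects on cellulose and pectin. It read 160 and 200 in air and 821 and 738 in anoxia, a rise of 2.12 ± 0.20 (limma, adjusted p = 0.00389) that was called with any 1 array left out and not with all probe sets tested, dim ones included (0.0504). GLU13 (LOC4340679) read 18.5 and 15.9 in air and 39.1 and 62.8 in anoxia, a rise of 1.48 ± 0.29 (adjusted p = 0.0202). Its aerobic level was just above background, and its call was lost without either aerobic array (0.116 and 0.139) or anoxic replicate 2 (0.0551).

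The other 5 GLU genes with a probe set were at background in both groups. GLU5, named Cel9A as well, read 8.57 to 9.56, GLU12 read 9.95 to 12.9, GLU14 read 6.0 to 6.08, and GLU15 read 5.12 to 5.22. GLU6 read 14.1 on anoxic replicate 1 and 5.29 to 5.40 on the other 3 arrays. None of these was tested.

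**Figure D4:**
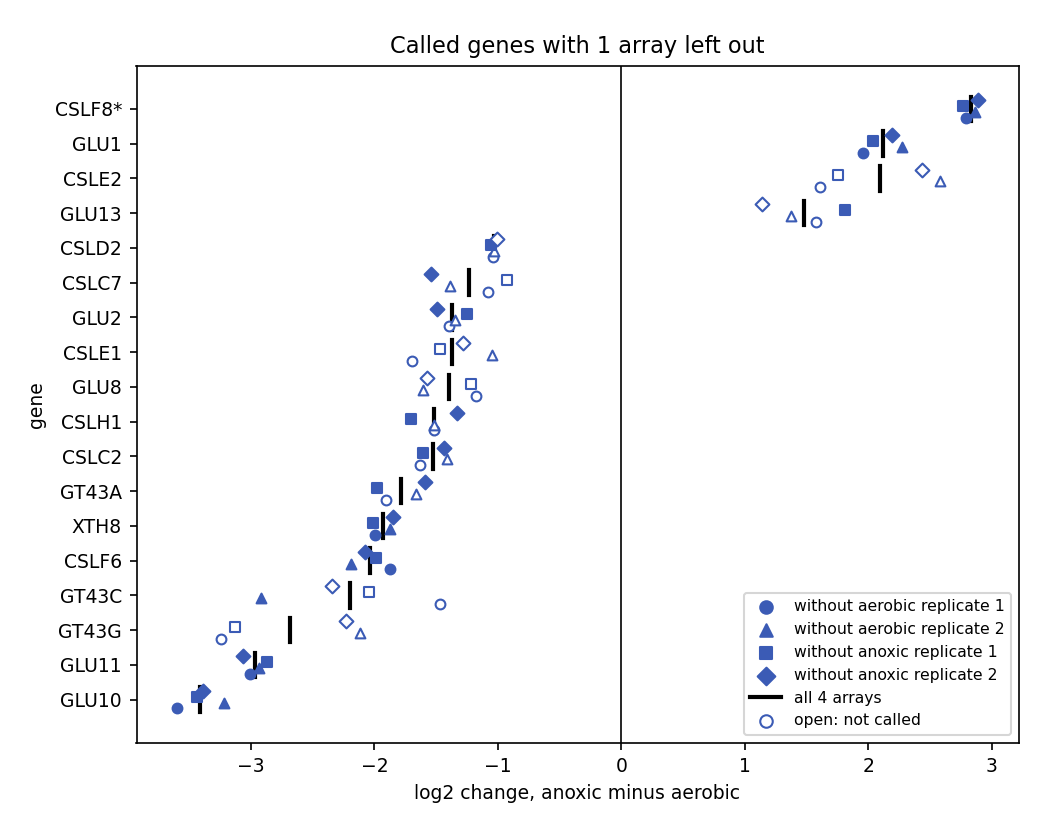
Log2 change of each called gene with all 4 arrays (black bar) and with 1 array left out (symbols). Filled symbols kept the call and open ones did not, and an asterisk marks the gene named only with Os in front. CSLC2, CSLF8, GLU8, GLU10 and GT43G are drawn at fitted values, where the text gives bounds. No symbol crosses 0, and every symbol of CSLF6, CSLF8, GLU1, GLU10, GLU11 and XTH8 is filled.

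Between the families, the counts of calls differed as follows, against 18.0% called lower and 16% called higher over all genes tested. Of 12 tested CSL genes 6 fell (50%) and 1 rose (8.33%), with a median of -0.90 and a range from -2.03 to 2.09. Among GLU genes 66.7% fell and 33.3% rose, with a median of -1.38 (-1.26 with GLU8 and GLU10 at their bounds). For GT43, 42.9% fell. With 1 to 12 genes a family, these are descriptions, and no difference between families was tested.

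**Figure D5:**
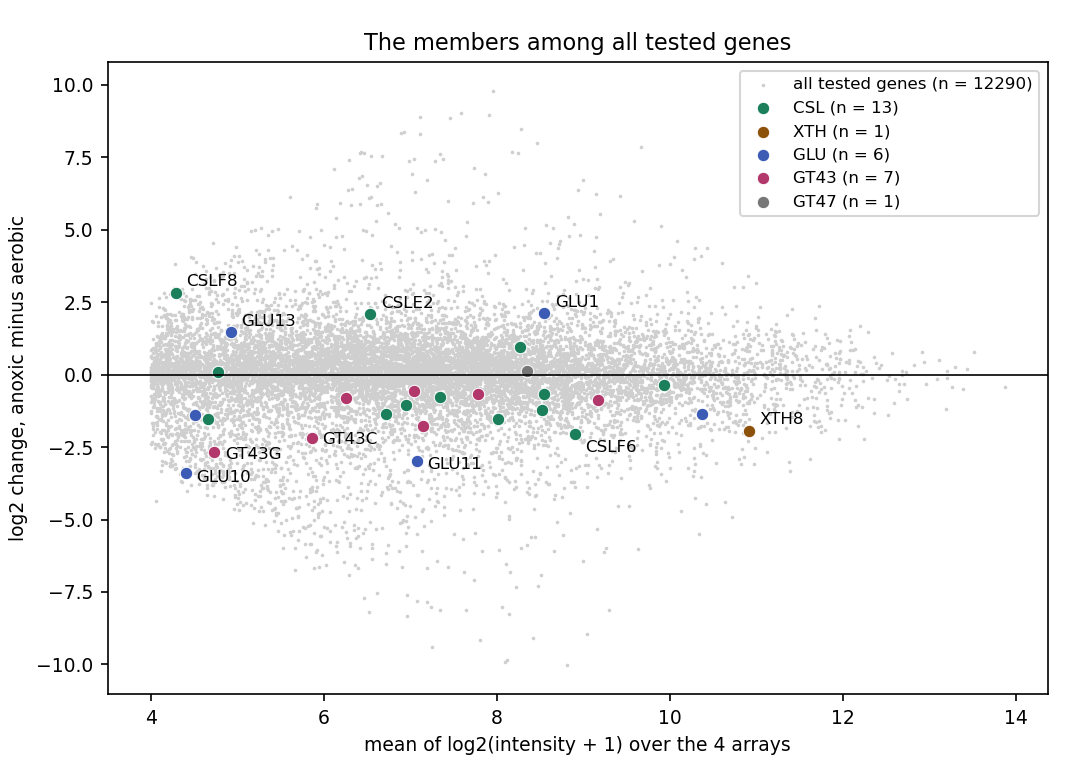
The tested genes among all 12290 genes tested. The x axis is the mean of log2(intensity + 1) over the 4 arrays and the y axis the log2 change (anoxic minus aerobic); grey points are all genes and coloured points the families, with CSLF8 and GT47D included. The members above background in both groups reach from -2.97 to 2.12, and grey points lie beyond them in both directions. CSLC2, CSLF8, GLU8, GLU10 and GT43G are drawn at fitted values against a group at background.

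Other wall genes were counted in lists matched by symbol, to be read against the 18.0% called lower and 16% called higher over all genes tested. Of 7 tested CESA genes, for the cellulose that these glucans coat, limma called 3 lower and 0 higher (6 and 0 at an unadjusted p under 0.05), with a median of -0.95 and 1 to 3 lower with 1 array left out. Of 15 expansins, which loosen the wall, 7 fell and 3 rose (median -0.92; 3 to 7 lower and 1 to 3 higher with 1 array left out, the fewest without either aerobic array). Of 15 genes for nucleotide sugars, the donors of the synthases, 3 fell (20%) and 2 rose (13.3%), shares near those over all genes (median -0.48; 0 to 2 lower and 0 to 1 higher with 1 array left out). The largest change there was that of UGE-4, an epimerase of UDP-glucose and UDP-galactose, at least 4.28-fold lower (limma, adjusted p = 0.00726; not called without aerobic replicate 2, 0.0509, or anoxic replicate 2, 0.0581). GME-1 fell by 1.57 (limma, adjusted p = 0.0148). It was not called without aerobic replicate 1 or 2, with changes of -1.51 and -1.63. RGP3, a UDP-arabinose mutase that supplies arabinoxylan side chains, fell by 1.49 (adjusted p = 0.0220) and was not called with any 1 array left out. The 2 genes called higher were Sus2, by 1.09 (limma, adjusted p = 0.0150), and UGE-2, by 1.04 (0.0148). UGE-2 shares its family name with UGE-4 and read 669 and 647 in air and 1255 and 1459 in anoxia.

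Of 7 tested genes for substituting or acylating arabinoxylan, 3 fell and 1 rose (median -1.27, or -0.97 with bounds for genes at background in 1 group; 2 to 4 lower and 0 to 1 higher with 1 array left out). XAT2, a xylan arabinosyltransferase, rose by 1.77 ± 0.20 (limma, adjusted p = 0.00559; not called without aerobic replicate 1, 0.0547, or 2, 0.0600). The 3 lower genes were AT4, AT5 and AT7, all matched by the letters AT and a number. AT4 was at least 72.0-fold lower (limma, adjusted p = 0.00164) and carries the synonym PMT, an enzyme that acylates lignin precursors and not xylan. AT5 was at least 16.5-fold lower (0.00355) and AT7 fell by 1.61 (0.00530). What AT5 and AT7 acylate was not tested, so the counts and median of this list are not those of xylan genes alone. Of 18 tested glycan-trimming genes, all of them β-glucosidases by symbol with substrates that need not be wall glucans, 11 fell and 2 rose (median -2.47, or -2.21 with bounds; 8 to 10 lower and 1 to 2 higher with 1 array left out). Of 4 genes of wall structure 2 fell and 1 rose (median -0.62, or -0.33 with bounds; 1 to 2 lower and 0 to 1 higher with 1 array left out): BC1, a COBRA-like gene of the wall, was at least 3.11-fold lower (adjusted p = 0.00716; not called without anoxic replicate 1, 0.0527, or 2, 0.0563), BC1L9 fell by 2.91 (0.00161), and BC1L6 rose by 2.84 (0.00460; not called without aerobic replicate 1, 0.0624, or 2, 0.0546). All these comparisons share the 4 arrays, so the lists are not independent of the members.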

How the data were processed

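The authors deposited normalized intensity values, linear and between 2.25 and 18694 with array medians of 7.36 to 7.55; per the submitters' processing notes GCRMA was used, with version and settings not given in the sources used here. Of 57381 probe sets on 4 Affymetrix Rice Genome arrays, 187 controls were left out. The platform's annotation gave 1 gene for 22436 probe sets, several for 95 (left unnamed) and none for 34663; all 17905 genes were found in the RefSeq table of assembly ASM3414082v1, used for names and neighbours only. log2(intensity + 1) was fitted with limma 3.58.1 in R 4.3.3 (lmFit, eBayes, 2-sided, 2 residual and 2.34 prior degrees of freedom; Benjamini-Hochberg over 18826 probe sets). The steps were tested on simulated data, for which no results are given here. Depth does not apply to arrays; their number limits precision.

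Every member may be named, and the fullest values go to GLU1, GLU10, GLU11, GT47D, GT43G and the called genes of each family; list genes are up to 3 called ones with the largest change. Members and lists were chosen with earlier results of these data known, and 14 list matches that share only letters with another kind of gene were dropped once the matches had been seen. Replicate numbers paired no samples by any label, so the fit had no block. Fits with 1 array left out kept the filter of all 4 arrays, and the other settings tried are given with their effects at the end.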

Additional observations from a re-analysis of the deposited data

How the results depend on the processing

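With a pseudocount of 16, quantile normalization, an intensity trend, other probe set choices or the names with Os in front, 11 to 14 members were called lower and 2 to 4 higher (14 and 3 in the report). With no filter on the mean, limma called 5 members lower and 0 higher (16 and 5 at an unadjusted p under 0.05), with CSL at 2 and 0, GLU at 2 and 0 and GT43 at 0 lower (3 at an unadjusted p), and 708 genes lower and 490 higher over all. With a mean of at least 6, 9 members were lower, GLU had 2 lower and 1 higher, GT43 1 lower, and 1454 genes were lower over all. CSL genes called higher numbered 2 under quantile normalization, with no size threshold and with the Os names, and 0 (limma; 1 at an unadjusted p) with the brightest probe set by mean log2, where CSLE2 turned to -0.49, and 0 where all tested probe sets of a gene had to share the call. GLU had 1 gene higher with a pseudocount of 16. With 1 array left out, where the lone array of a group is assumed to vary like the others, members numbered 4 to 10 lower and 1 to 2 higher, CSL 1 to 4 and 0 (0 to 2 higher at an unadjusted p), GLU 2 to 3 and 1 to 2, GT43 0 to 2 lower, and all genes 860 to 1647 and 452 to 1308. The cause of these shifts was not tested. The replicate numbers did not pair the samples (correlation of same-numbered deviations -0.14); a replicate block gave 13 members lower and 3 higher, losing CSLC7 (adjusted p = 0.0629), and 2033 and 1761 genes over all. A crossed pairing, chosen after seeing the data, gave 2351 and 2090 genes. Genes at background have only bounds.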
